A study of Bos taurus with 6 samples.

Results

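AQP3, AQP11, ATP1B1 and ATP1B3 are 4 genes of water and ion transport that act when the embryo fills its blastocoel, the fluid cavity of the blastocyst. They were taken by gene symbol from a table of 15314 named genes, and each symbol stood in a single row. All 4 averaged 10 or more scaled counts over the 6 libraries and were tested.

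Polyadenylated RNA was sequenced from bovine embryos made by in vitro fertilisation and taken as late morulae on day 6. The embryos had been injected with small interfering RNA (siRNA) against NOTCH1, with siRNA against RBPJ, or with a nonspecific siRNA as the control. NOTCH1 encodes a NOTCH receptor, and RBPJ encodes the transcription factor that carries the NOTCH signal to DNA. There were 2 libraries a group, each from a pool of 15 embryos, so single embryos cannot be seen and a group's spread rests on 2 pools. The labels do not say whether the pools are separate batches of oocytes, so the p-values rest on a spread between libraries that may be technical. In such bulk samples, fewer cells of a type and less RNA per cell cannot be told apart.

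The blastocoel forms when the outer cells of the morula, the future trophectoderm, become a sealed and polarised epithelium. The Na,K-ATPase on their basolateral side pumps sodium out of the cell into the space between cells, and water follows the ions through membrane channels. The pump consists of a catalytic alpha subunit and a beta subunit that folds the pump and carries it to the membrane. ATP1B1 and ATP1B3 encode the beta 1 and beta 3 subunits. AQP3 encodes an aquaglyceroporin, a channel for water and glycerol, and AQP11 an aquaporin of unusual sequence found mainly in intracellular membranes. The late morula is the stage just before this cavity appears.

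The authors' values are scaled read counts, with totals of 10365700 to 10815600 per library and an approximate depth of 9610000 to 13700000 reads. Depth was highest in replicate 1 of the RBPJ knockdown. RBPJ had 121 and 94.5 scaled counts in the RBPJ knockdown, against 447 and 391 in the control (log2 fold change -1.96, SE 0.18, limma adjusted p = 0.00143). NOTCH1 had 48.0 and 49.5 scaled counts in the NOTCH1 knockdown, against 69.6 and 140 in the control, and did not pass (log2 fold change -1.003, SE 0.42, limma adjusted p = 0.634). It had 50.0 and 125 in the RBPJ knockdown. The results for the NOTCH1 knockdown are therefore those of the libraries labelled so. Of 8 markers of the embryo at this stage, 7 had a row, and all 7 had a mean of at least 10, among them POU5F1, CDX2 and KRT8. Their summed level was 40528 to 46429 in the NOTCH1 knockdown, 30886 to 42790 in the RBPJ knockdown and 34018 to 37328 in the control. Markers of cumulus and granulosa cells, the cells that surround the oocyte, summed to 263 to 374 in the NOTCH1 knockdown, 331 in both RBPJ knockdown libraries and 291 to 334 in the control, with 8 of 10 having a row and 5 a mean of at least 10. Fibroblast markers, with 5 of 6 at a mean of at least 10, summed to 564 to 573, 625 to 642 and 557 to 676 in the same order. Blood and immune markers, with 2 of 6 at such a mean, summed to 897 to 1088, 1249 to 1475 and 1242 to 1912, of which CSF1R made up most. The leukocyte marker PTPRC was at most 11.3 in any library. No marker with a row was at 0 in all 6 libraries.

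None of the 4 transcripts passed the test in either knockdown or between the knockdowns. AQP3 had the same direction in both knockdowns, with a mean below that of the control by less than the SD of the control libraries. That SD also holds the difference between the replicate numbers, which ran the same way for AQP3 in every group. AQP11 varied most among the libraries, and it differed between the replicate numbers. The log2 differences of ATP1B1 and ATP1B3 between groups lay between -0.30 and 0.14. The test was limma on log2(scaled count + 1) over the 12070 named genes that averaged 10 or more, with Benjamini-Hochberg adjustment over these genes, and a gene was called at an adjusted p below 0.05. Unless stated, the siRNA comparisons did not model the replicate number, and none of the 4 passed with it in the model either.

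**Figure D1:**
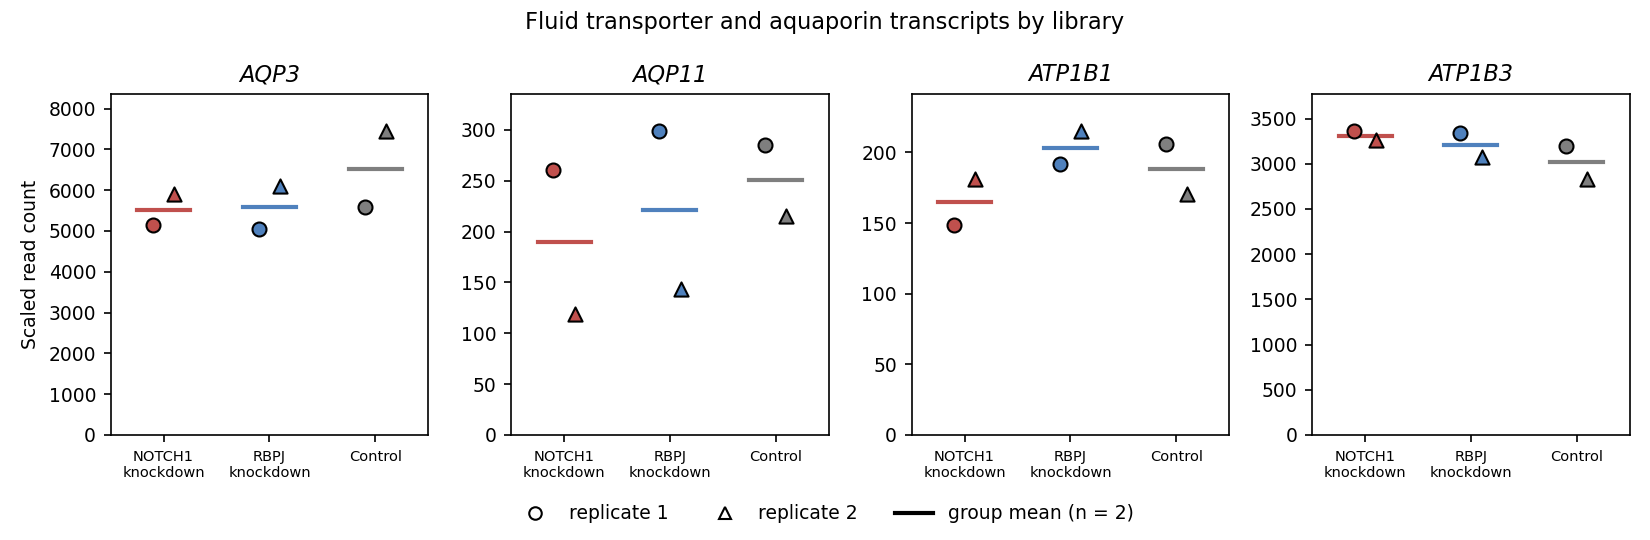
Scaled read counts (vertical axis, linear from 0) of AQP3, AQP11, ATP1B1 and ATP1B3 in each of the 6 libraries. Circles are replicate 1, triangles replicate 2 and bars the mean of 2 libraries. AQP11 ranges from 119 to 298 and has its triangle below its circle in every group, while AQP3 has its triangle above.

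AQP3 had 5143 and 5910 scaled counts in the NOTCH1 knockdown, 5047 and 6106 in the RBPJ knockdown, and 5587 and 7440 in the control. The highest library was replicate 2 of the control, and the other control library lay among the knockdown libraries, so the groups overlapped. Within each replicate number AQP3 was lower in both knockdowns than in the control. ATP1B3 likewise kept 1 order, being higher in both knockdowns within each number. The share of all tested genes with such an order was not counted. The mean was 5527 ± 542 in the NOTCH1 knockdown, 5577 ± 749 in the RBPJ knockdown and 6514 ± 1311 in the control (SD, n = 2 each). The log2 fold change was -0.23 in the NOTCH1 knockdown (SE 0.14, limma adjusted p = 0.776), with a 95% interval of 0.691 to 1.06 for the fold. In the RBPJ knockdown it was -0.22 (SE 0.14, limma adjusted p = 0.983), with an interval of 0.696 to 1.07. Both comparisons use the same 2 control libraries. Without replicate 2 of the control the values became -0.019 and -0.0092. This omission sets both replicate numbers of a knockdown against replicate 1 of the control, so the difference between the numbers enters these values.

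AQP11 had 260 and 119 scaled counts in the NOTCH1 knockdown, 298 and 144 in the RBPJ knockdown, and 286 and 215 in the control. In each group the first of these libraries was the higher, and the groups overlapped. The mean was 189 ± 100 in the NOTCH1 knockdown, 221 ± 109 in the RBPJ knockdown and 250 ± 49.6 in the control (SD, n = 2 each). The log2 fold change was -0.49 in the NOTCH1 knockdown (SE 0.36, limma adjusted p = 0.821) and -0.26 in the RBPJ knockdown (SE 0.36, limma adjusted p = 0.995). The 95% intervals of the fold, 0.410 to 1.23 and 0.483 to 1.45, were the widest of the 4 genes in this fit, which does not model the replicate number. With the number as a block the SE of AQP11 was 0.19 in both comparisons, and that of ATP1B1 was also 0.19. The direction of AQP11 in the NOTCH1 knockdown turned to 0.069 without replicate 2 of that knockdown. In the RBPJ knockdown it turned to 0.27 without replicate 2 of that knockdown. These fits do not model the replicate number and set replicate 1 of a knockdown against both control libraries. The difference between the numbers thus enters them. Within each replicate number AQP11 was lower in the NOTCH1 knockdown than in the control (260 against 286, 119 against 215). In the RBPJ knockdown it was higher in replicate 1 (298 against 286) and lower in replicate 2 (144 against 215). AQP11 rested on about 110 to 388 reads per library.

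ATP1B1, the beta 1 subunit, had 149 and 181 scaled counts in the NOTCH1 knockdown, 192 and 215 in the RBPJ knockdown, and 206 and 171 in the control. The control libraries overlapped with both knockdowns. The mean was 165 ± 22.7 in the NOTCH1 knockdown, 203 ± 16.5 in the RBPJ knockdown and 188 ± 25.2 in the control (SD, n = 2 each). The log2 fold change was -0.19 in the NOTCH1 knockdown (SE 0.20, limma adjusted p = 0.878; 95% interval of the fold 0.651 to 1.18). It was 0.11 in the RBPJ knockdown (SE 0.20, limma adjusted p = 0.995; interval 0.803 to 1.45), which turned to -0.024 without replicate 2 of the control. The signs thus differed between the knockdowns, and both NOTCH1 knockdown libraries lay below both RBPJ knockdown libraries. The difference itself did not pass (log2 fold change -0.30, SE 0.20, limma adjusted p = 0.999), and 15.5% of all tested genes had both NOTCH1 knockdown libraries below both RBPJ knockdown libraries.

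ATP1B3, the beta 3 subunit, had 3358 and 3257 scaled counts in the NOTCH1 knockdown, 3343 and 3078 in the RBPJ knockdown, and 3202 and 2832 in the control. Both NOTCH1 knockdown libraries lay above both control libraries, as was the case for 18.6% of all tested genes. The RBPJ knockdown libraries overlapped with the control. The mean was 3307 ± 70.8 in the NOTCH1 knockdown, 3211 ± 187 in the RBPJ knockdown and 3017 ± 261 in the control (SD, n = 2 each). The log2 fold change was 0.14 in the NOTCH1 knockdown (SE 0.10, limma adjusted p = 0.831) and 0.09 in the RBPJ knockdown (SE 0.10, limma adjusted p = 0.989). Without replicate 2 of the control these values became 0.047 and 0.0029, and without replicate 1 of the control 0.22 and 0.18. Each omission leaves 1 replicate number of the control against both of a knockdown. The 95% intervals of ATP1B3 reached from 0.938 to 1.29 and from 0.910 to 1.25 on the fold scale. They were the narrowest of the 4 genes in this fit without a replicate block. With the block the SE was 0.088 for ATP1B3 and 0.086 for AQP3.

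**Figure D2:**
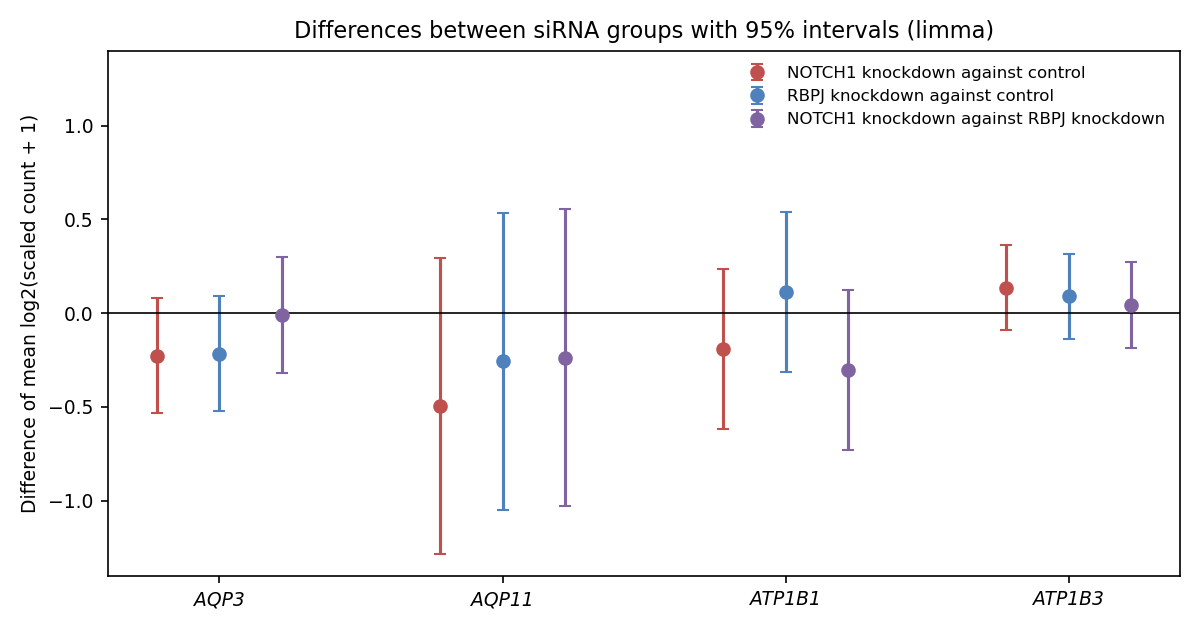
Difference of mean log2(scaled count + 1) (vertical axis) between siRNA groups for AQP3, AQP11, ATP1B1 and ATP1B3, with 95% limma intervals as bars (2 libraries a group). The intervals are those of the model without a replicate block. In that model all of them cross 0, and those of AQP11 are the widest, from -1.29 to 0.30 in the NOTCH1 knockdown. With the block, the unadjusted limma p of AQP3 was 0.0155 in the NOTCH1 knockdown and 0.0200 in the RBPJ knockdown. That of AQP11 was 0.0159 in the NOTCH1 knockdown, so these intervals would not cross 0, though none passed after adjustment.

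Among all tested genes limma called 0 in the NOTCH1 knockdown (0%), where 880 had an unadjusted p under 0.05 (7.29%) and none of the 4 did without a replicate block. The RBPJ knockdown had 1 (0.00829%), RBPJ itself, and the direct comparison of NOTCH1 knockdown with RBPJ knockdown also 1 (0.00829%), again RBPJ. With the replicate number as a block these counts were 138, 12 and 15, and none of the 4 transcripts was among the called genes. The smallest adjusted p of the 4 was then 0.245, for AQP3 in the NOTCH1 knockdown (limma, log2 fold change -0.23, SE 0.09, unadjusted p = 0.0155). AQP11 had a limma adjusted p of 0.247 there (unadjusted p = 0.0159), and AQP3 one of 0.465 in the RBPJ knockdown (unadjusted p = 0.0200). With the block, 1474 of the 12070 tested genes had an unadjusted limma p under 0.05 in the NOTCH1 knockdown. In the RBPJ knockdown 1038 did. Counted by sign, 1 of the 4 was higher and 3 were lower in the NOTCH1 knockdown, and their median log2 fold change was -0.21, against 0.0059 over all genes. In the RBPJ knockdown 2 were higher and 2 lower, with a median of -0.062 against -0.0018 over all genes. Between the knockdowns, AQP3, AQP11 and ATP1B3 had log2 differences of -0.0099, -0.24 and 0.044 (limma adjusted p = 0.999 each), and the 95% intervals of their folds were 0.802 to 1.23, 0.490 to 1.47 and 0.881 to 1.21.

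The replicate number separated the libraries of both aquaporins. This comparison was added after the values had been seen, with group and replicate number in one limma model. AQP3 was higher in replicate 2 than in replicate 1 of every group, by 1.15-fold in the NOTCH1 knockdown, 1.21-fold in the RBPJ knockdown and 1.33-fold in the control. The log2 difference was 0.30 (SE 0.07, limma adjusted p = 0.0233). AQP11 was lower in replicate 2 of every group, with a ratio of replicate 2 to replicate 1 of 0.455 in the NOTCH1 knockdown, 0.482 in the RBPJ knockdown and 0.754 in the control. Its log2 difference was -0.86 (SE 0.15, limma adjusted p = 0.00373). ATP1B3 was lower in replicate 2 of every group too, with ratios of 0.970, 0.921 and 0.885, and did not pass (log2 difference -0.11, SE 0.07, limma adjusted p = 0.454). ATP1B1 had ratios of 1.22 and 1.12 in the NOTCH1 and RBPJ knockdowns and 0.827 in the control, so its libraries showed no common order (log2 difference 0.06, SE 0.15, limma adjusted p = 0.897).

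Of all tested genes, 2.79% were called between the replicate numbers, against 2 of these 4 genes, and 37.7% had 1 direction in all 3 groups, as 3 of the 4 had. The AQP3 call was lost when either library of the RBPJ knockdown was left out (log2 difference 0.31 either way). Either omission takes that group out of the replicate estimate, so the 2 omissions are 1 check. The call was also lost without a filter on low values (limma adjusted p = 0.066). Both calls were lost when variances were moderated without a trend on expression level (limma adjusted p = 0.372 for AQP3 and 0.315 for AQP11). The summed level of the embryo markers was also lower in replicate 2 of each group, at 40528 against 46429 in the NOTCH1 knockdown, 30886 against 42790 in the RBPJ knockdown and 34018 against 37328 in the control. The lower sums came from the keratins KRT8 and KRT18 (log2 differences -0.54 and -0.58). Of the same list, GATA3 and CDX2 had log2 differences of -0.44 and -0.058, while POU5F1, TFAP2C and NANOG were higher by sign in replicate 2 (0.069, 0.14 and 0.23). The marker sum of cumulus and granulosa cells was higher in replicate 2 of each group, at 374 against 263, 331 against 331 and 334 against 291 in the same order of groups, with no difference beyond rounding in the RBPJ knockdown. The part of these differences in the aquaporin values was not tested.

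**Figure D3:**
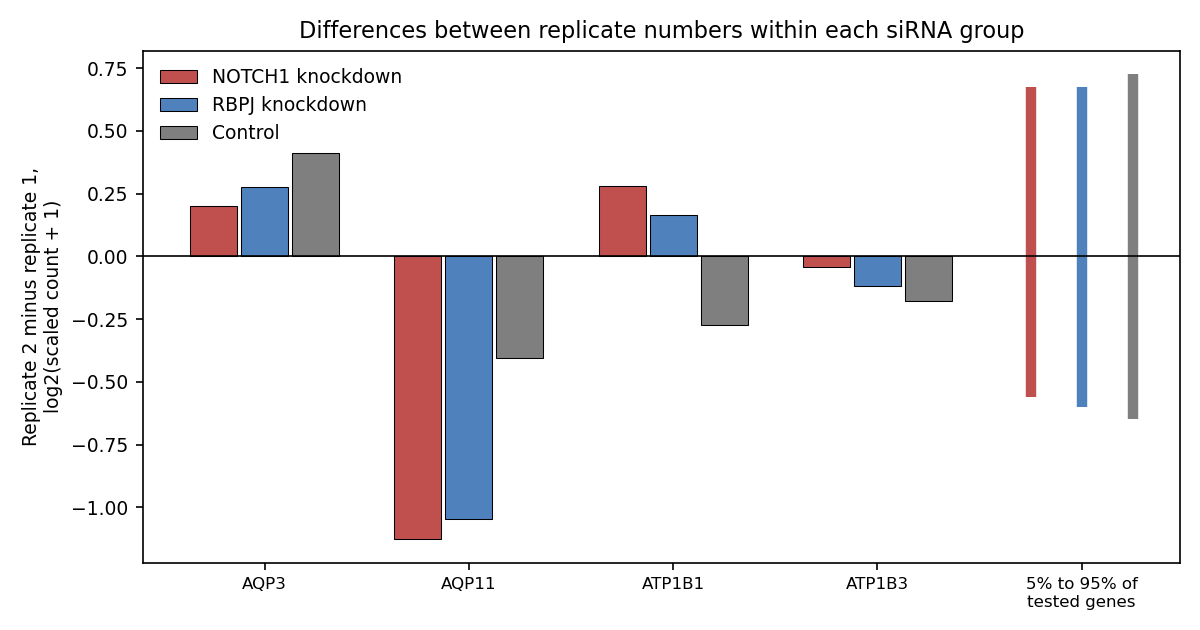
Replicate 2 minus replicate 1 on the log2(scaled count + 1) scale (vertical axis) within each siRNA group for the 4 genes, with the 5th to 95th percentile of 12070 genes as lines at the right. AQP11 stands at -1.13 and -1.05 in the NOTCH1 and RBPJ knockdowns, below the 5th percentiles of -0.56 and -0.60, while the bars of AQP3, ATP1B1 and ATP1B3 lie within the percentile lines.

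Over the 6 libraries the highest value of AQP11 was 2.52 times the lowest, a range wider than that of 90.5% of tested genes. For AQP3 and ATP1B1 this ratio was 1.47 and 1.44, wider than for 57.7% and 53.7% of genes. For ATP1B3 it was 1.19, wider than for 12.6%.

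Within a library, ATP1B3 divided by ATP1B1 gave a ratio of scaled counts of 22.5 and 18.0 in the NOTCH1 knockdown, 17.5 and 14.3 in the RBPJ knockdown, and 15.5 and 16.6 in the control. Both NOTCH1 knockdown libraries were above all others in this ratio, which is not corrected for transcript length and was not tested. The margin was small, at 18.0 in replicate 2 of the NOTCH1 knockdown against 17.5 in replicate 1 of the RBPJ knockdown. The share of other gene pairs with such an order was not counted.

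Of 13 other Na,K-ATPase subunits and FXYD proteins, small membrane proteins that tune the pump, 9 had a row and 6 were tested. None was called in any siRNA comparison. In the NOTCH1 knockdown 4 were higher and 2 lower by sign (median log2 fold change 0.18), and in the RBPJ knockdown 3 were higher and 3 lower (median 0.0055). FXYD4, a pump regulator known from kidney, had 202 and 107 scaled counts in the NOTCH1 knockdown, 147 and 88.4 in the RBPJ knockdown, and 118 and 113 in the control. ATP1B2, the beta 2 subunit, had log2 fold changes of -0.0076 and 0.080. FXYD6 had 0.18 in the NOTCH1 knockdown and 0.22 between NOTCH1 and RBPJ knockdown.

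Of 12 other aquaporins, 6 had a row and 1, AQP7, an aquaglyceroporin like AQP3, reached a mean of 10. AQP7 had 24.5 and 59.2 scaled counts in the NOTCH1 knockdown, 26.1 and 52.3 in the RBPJ knockdown, and 40.1 and 73.1 in the control (log2 fold changes -0.49 and -0.54, limma adjusted p = 0.868 and 0.983). It was higher in replicate 2 of every group, as AQP3 was, with a log2 difference of 1.02 (SE 0.26, limma adjusted p = 0.0374). Of all tested genes 2.79% were called between the replicate numbers, and 37.7% had 1 direction in all 3 groups. Without the variance trend 0 genes were called, so this call was lost too. The water channel AQP4 averaged 8.05 scaled counts over the 6 libraries, the lens channel MIP 2.05, AQP5 1.50, AQP8 0.640 and AQP1 0.346. AQP2, AQP6, AQP9, AQP10, AQP12A and AQP12B were not analysed here.

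**Figure D4:**
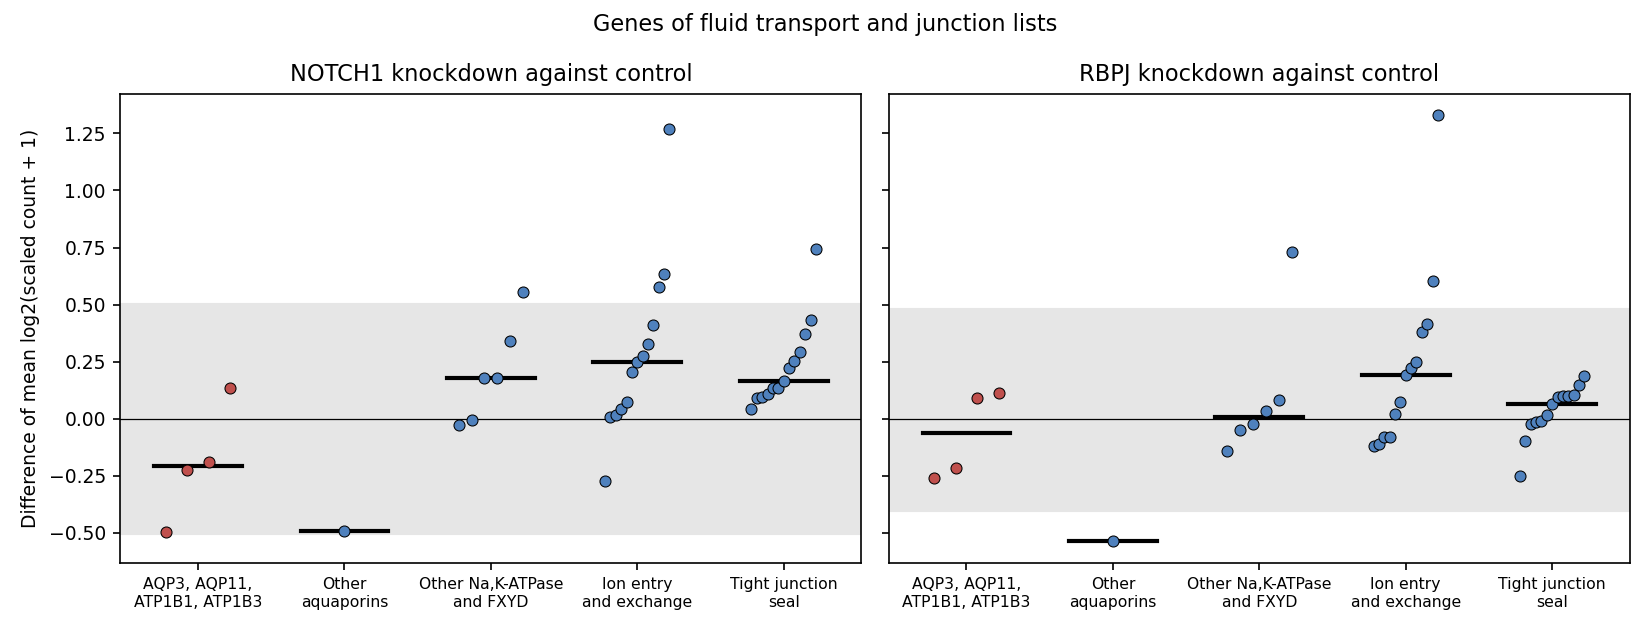
Difference of mean log2(scaled count + 1) (vertical axis) for each tested gene of 5 lists in the NOTCH1 knockdown (left) and the RBPJ knockdown (right) against the control. Points are genes, black bars list medians and the grey band the 5th to 95th percentile of 12070 genes. The 4 transporter and aquaporin genes (red) lie within the band in both panels, and all 13 tight junction genes lie above 0 in the NOTCH1 knockdown.

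Most of the ion entry and exchange genes move ions such as sodium, chloride and bicarbonate into or out of the outer cells. The list also holds SLC9A3R1 and SLC9A3R2, named as regulators of the exchanger SLC9A3. Of 18 listed, 13 were tested and none was called in the siRNA comparisons. In the NOTCH1 knockdown 12 were higher and 1 lower by sign (92.3% higher, against 51.1% of all genes), and their median log2 fold change was 0.25. In the RBPJ knockdown 9 were higher and 4 lower (69.2%, against 49.7%), with a median of 0.19. SCNN1A, the alpha subunit of the epithelial sodium channel, had 359 and 413 scaled counts in the NOTCH1 knockdown, 379 and 313 in the RBPJ knockdown, and 234 and 284 in the control (log2 fold changes 0.58 and 0.42, limma adjusted p = 0.466 and 0.983). Both NOTCH1 knockdown libraries lay above both control libraries in this gene, as was the case for 18.6% of all tested genes. The RBPJ knockdown libraries also lay above both, and the share of genes for this was not counted. SLC12A4 and SLC12A7, potassium-chloride cotransporters, had log2 fold changes of 0.28 and 0.41 in the NOTCH1 knockdown and 0.25 and 0.38 in the RBPJ knockdown. SLC12A2, the sodium-potassium-chloride cotransporter, was the 1 lower by sign in the NOTCH1 knockdown, at -0.27. Between the knockdowns 9 of the 13 were higher and 4 lower in the NOTCH1 knockdown, and SLC4A7, a bicarbonate cotransporter, SLC12A2 and SLC9A3R2 had log2 differences of 0.18, -0.15 and 0.41 (limma adjusted p = 0.999 each). The 2 comparisons share the control libraries.

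Tight junction genes, which seal the outer cells so that fluid is retained, were all higher by sign in the NOTCH1 knockdown, 13 of 13 tested out of 15 listed, with a median log2 fold change of 0.17 against 0.0059 over all genes. None was called. CLDN10, CLDN3 and CLDN4, claudins that form the junction strands, had log2 fold changes of 0.43, 0.74 and 0.25 (limma adjusted p = 0.557, 0.615 and 0.623). CLDN4 had 3201 and 2973 scaled counts in the NOTCH1 knockdown, 2803 and 2760 in the RBPJ knockdown, and 2635 and 2549 in the control. In the RBPJ knockdown 8 tight junction genes were higher and 5 lower, with a median of 0.07 and none called, and CGN, a junction plaque protein, had a log2 fold change of -0.25. CGN had 1727 and 1653 in the NOTCH1 knockdown, 1437 and 1208 in the RBPJ knockdown, and 1517 and 1620 in the control. The difference of CGN between NOTCH1 and RBPJ knockdown was 0.36 (SE 0.12, limma adjusted p = 0.999), and that of CLDN7 0.32 (SE 0.14, limma adjusted p = 0.999). Between the replicate numbers 1 of the 13 tight junction genes was called, next to 2.79% of all genes. It was TJP3, lower in replicate 2 (log2 difference -0.44, SE 0.09, limma adjusted p = 0.0069). This call was lost without the variance trend, where 0 genes were called.

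Likeness of pattern was measured as Pearson's r of log2(scaled count + 1) over the 6 libraries, against each of 8450 genes that averaged 100 or more. These points share groups and replicate numbers, so r is given as a description. The genes most like AQP3 were TOMM70, a receptor for proteins imported into mitochondria (r = 0.996), ZNF263 (0.992) and DUSP7 (0.982), and 116 genes had an r above 0.9. For AQP11 they were the deacetylase SIRT1 (0.995), NUDCD1 (0.988) and the ceramide carrier CERT1 (0.988). For ATP1B1 they were RBBP6 (0.974), NUB1 (0.973) and RTF1 (0.973), and for ATP1B3 NSRP1 (0.986), SPART (0.985) and TXNDC5 (0.984). An r above 0.9 was reached by 98 genes for AQP11, 34 for ATP1B1 and 111 for ATP1B3. Among the 4 genes themselves, AQP3 and ATP1B3 ran opposite to each other (r = -0.965, n = 6 libraries), AQP3 and AQP11 had -0.405, and the other pairs lay between -0.185 and 0.219. How many genes had so negative an r with AQP3 or ATP1B3 was not counted.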

How the data were processed

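Per the labels' protocols, GFP and RFP messenger RNA were added as a spike-in before extraction, and messenger RNA was captured on oligo(dT) beads before library PCR. The submitters' processing notes name Salmon 0.14.1, DESeq2 and the build ARS-UCD1.2, without role or order. The table the authors deposited holds a signal for each gene in each library. Its values look like read counts divided by scaling factors: 81.9% to 83.1% of low values lay within 0.1 of a multiple of 1 step per library, too few to recover whole reads, so no count test was run. Approximate depth is the total divided by that step. Of 17922 rows, 2551 without a gene name (6.20% to 7.22% of all counts of a library) were not used, and for 57 repeated symbols the row with the higher mean was kept.

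Values were analysed as log2(value + 1), so folds of low genes are understated. limma 3.58.1 in R 4.3.3 was fitted with group means over all 6 libraries, leaving 3 residual degrees of freedom, with a trend on expression level. The fit was also run on simulated counts. These were drawn independently for each library, without a replicate difference, so they cannot show how the fit deals with one. Same-numbered libraries deviated together (correlations of replicate differences across genes between groups of 0.167, 0.203 and 0.213), so the block is given beside counts it moves. The numbers come from the sample titles, which do not say what they share. Members, lists and the rule for named genes (the members, targeted genes, called list genes, up to 3 list genes with the smallest p per comparison, and the 3 most alike genes) were chosen with earlier results of these data known. Some genes that this rule gives are not reported here. Transcript lengths were not used here, so levels of different genes are not ranked, and the ratio of ATP1B3 to ATP1B1 is set side by side only across libraries. Reads of overlapping or antisense genes cannot be told apart. The gene table at hand is of another build, so no coordinates are given. Figures used matplotlib 3.10.9 in Python 3.11.15.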

Additional observations from a re-analysis of the deposited data

How the results depend on the processing

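In the 3 siRNA comparisons none of the 4 genes passed under any alternative that kept both libraries of the groups compared. Over all 16 alternatives 184 of 192 values kept their sign, many of them by construction. Changes of the filter or variance estimate, the replicate block and a fit of only the compared groups leave the log2 fold change unchanged. So does omitting a library of the group not compared. The 8 values that changed sign did so when a library of a compared group was left out. Such fits do not model the replicate number and set 1 number against both. A difference between the numbers thus enters these values. Over omitted libraries the NOTCH1 knockdown log2 fold change ran from -0.43 to -0.019 for AQP3, -1.06 to 0.069 for AQP11, -0.33 to -0.051 for ATP1B1 and 0.047 to 0.22 for ATP1B3. In the RBPJ knockdown AQP3 ran from -0.42 to -0.0092, AQP11 from -0.78 to 0.27, ATP1B1 from -0.024 to 0.25 and ATP1B3 from 0.0029 to 0.18. Between NOTCH1 and RBPJ knockdown AQP3 ran from -0.15 to 0.13, AQP11 from -0.80 to 0.33, ATP1B1 from -0.44 to -0.16 and ATP1B3 from -0.016 to 0.10. Called genes ran from 0 to 1, 1 to 3 and 0 to 3 in the 3 comparisons over omitted libraries, were 138, 12 and 15 with the replicate block, and fell to 0 in the RBPJ and the direct comparison without the variance trend.

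Between replicate numbers 337 genes were called, 193 to 513 over omitted libraries, 140 without a filter on low values and 0 without the trend. AQP3 (0.24 to 0.34 over omitted libraries) lost its call without a filter (0.30, limma adjusted p = 0.066) and without the trend (0.30, limma adjusted p = 0.372), where AQP11 (-0.86, limma adjusted p = 0.315; -1.09 to -0.73 over omitted libraries) lost its own. ATP1B1 ran from -0.054 to 0.22. In this comparison leaving out 1 library takes its whole group out of the estimate, so both omissions of a group give the same value. The cause of these changes was not tested. The count-based test was not run, since the values are not whole counts. No scaling moved the median of all genes by more than 0.1.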
